A study of Mus musculus with 8 samples.

Results

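Claudins and the other genes of tight and gap junctions were followed in embryonic stem cells and in gonadal cell types derived from them. The 35 genes were a named list: 20 claudins, the MARVEL-domain genes Ocln, Marveld2 and Marveld3, the plaque genes Tjp1, Tjp3, Cgn, Cgnl1 and Pard3, the CTX family adhesion genes F11r, Jam2, Jam3 and Cxadr, and the connexins Gja1, Gjb2 and Gjb5. All 35 were found among 46078 gene IDs. RNA-seq was made from 4 cell types of mouse C57BL/6 origin, all XY, with 2 libraries labelled as biological duplicates for each. The tcESCs are embryonic stem cells that carry the tesco-cfp reporter, in which an enhancer of Sox9 drives CFP. The tc;Sf1ESCs are 1 clone of these cells that overexpresses a transgene of mouse Sf1 (Nr5a1), the nuclear receptor that directs gonadal fate. SCLCs, which the study calls Sertoli cell-like and the labels testicular somatic cell-like, were derived from tc;Sf1ESCs and isolated by flow cytometry at day 12 of culture. The todPGCLCs, primordial germ cell-like cells, came from another line, XY;Prdm1-gfp, in which a Prdm1 reporter drives GFP, and were isolated by flow cytometry at day 6 from testicular organoids. Line and cell state therefore cannot be told apart in any comparison of todPGCLCs with the other groups.

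Tight junctions seal the space between neighbouring epithelial cells. Claudins form the strands, some of them sealing and some making pores for ions or water; occludin and the other MARVEL proteins join the strands, and scaffolds of the ZO and cingulin families tie them to actin. Sertoli cells build the blood-testis barrier from such strands, in which claudin 11 is indispensable and claudins 3 and 5 and occludin also take part, and they are coupled by gap junctions of connexin 43, the product of Gja1. Pluripotent stem cells are themselves epithelial and express claudins 4, 6 and 7.

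The bases just before the start of 4 members are shown because these genes carry the differences described below. Cldn4 was the most abundant claudin mRNA of ESCs and Cldn6 that of SCLCs, Cldn11 is the claudin of the Sertoli cell barrier, and Gjb2 had the largest fitted rise from tc;Sf1ESCs to SCLCs among the members with counts in every library. Sequences are from RefSeq on GRCm38.p6, 5′ to 3′ on the strand of the gene. Capitals mark the GC box GGGCGG and the E-box CAGGTG, searched on both strands. The windows lie at chr5:134946935-134947184 on the minus strand, chr17:23679115-23679248 on the plus strand, chr3:31149670-31149919 on the plus strand and chr14:57104703-57104952 on the minus strand, and the Cldn6 window ends where the first annotated Cldn6 exon begins.
Cldn4: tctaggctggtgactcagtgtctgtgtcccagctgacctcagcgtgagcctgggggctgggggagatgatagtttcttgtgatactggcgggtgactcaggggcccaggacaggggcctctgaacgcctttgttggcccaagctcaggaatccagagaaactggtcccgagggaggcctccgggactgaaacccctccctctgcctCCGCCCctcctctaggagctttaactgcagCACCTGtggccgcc
Cldn6: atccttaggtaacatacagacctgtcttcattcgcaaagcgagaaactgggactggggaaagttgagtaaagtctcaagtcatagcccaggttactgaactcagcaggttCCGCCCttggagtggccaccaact
Cldn11: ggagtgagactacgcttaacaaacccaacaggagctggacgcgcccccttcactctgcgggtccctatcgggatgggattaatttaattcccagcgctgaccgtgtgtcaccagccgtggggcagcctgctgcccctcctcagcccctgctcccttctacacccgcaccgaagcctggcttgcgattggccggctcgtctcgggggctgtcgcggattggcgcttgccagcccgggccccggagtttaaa
Gjb2: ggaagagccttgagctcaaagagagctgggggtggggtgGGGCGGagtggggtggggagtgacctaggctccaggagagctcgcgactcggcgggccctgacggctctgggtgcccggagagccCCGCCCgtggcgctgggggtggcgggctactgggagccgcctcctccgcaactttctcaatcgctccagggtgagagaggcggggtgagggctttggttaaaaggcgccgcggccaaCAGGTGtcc

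Windows of 250 bases before a start were at hand for 28 members, 40 windows in all. The GC box was present in 22 of the 40, against 32.74% of all 32851 windows, and the E-box was present in 10, against 17.22%. Some windows of the same gene overlap, and by gene 18 of the 28 members had a GC box and 9 an E-box. A GATA motif, AGATAA, was present in 4 member windows (9.99% of all), those of Cldn10, Cldn18, Gja1 and Tjp3. The half-site of NR5A receptors such as SF1, AAGGTCA, was found in 1, before Gjb5 (4.08% of all), and the Grainyhead motif AACCGGTT in none (0.12% of all). No 2 different motifs shared bases in these windows. The Cldn11 window holds none of the 5 motifs.

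Libraries held 25411033 to 30680191 counts on genes, at which 3 counts correspond to 0.0978 to 0.118 CPM (counts scaled to the library total). Nr5a1 was at 0.0394 and 0 CPM in tcESCs, at 2.01 and 1.08 in tc;Sf1ESCs and at 12.9 and 18.4 in SCLCs, so that all 4 libraries of the transgenic genotype stood above the tcESCs. Of 14 Sertoli cell markers, the summed level was 594 and 621 CPM in SCLCs against 22.6 to 49.6 in ESCs, but Fshr stayed at or below 3 counts in every library and Amh was at 0.377 and 0.756 CPM in SCLCs, within or below the 0.587 to 0.867 of ESCs. The summed level of 12 markers of endoderm, primitive and visceral, rose further, to 1992 and 3473 CPM in SCLCs from 9.52 to 15.8 in ESCs, with Trf at or below 3 counts, and the higher value was that of SCLC replicate 2. Nephron and ureteric epithelium markers, 8 in the list, also summed to more in SCLCs (69.3 and 123 CPM) and in todPGCLCs (17.2 and 29.6 CPM) than in ESCs (2.57 to 3.85 CPM), with Cdh16 at or below 3 counts in both. Of the 5 tested, 4 were called higher in SCLCs than in tc;Sf1ESCs (80%, where 42.2% of all genes were called, 24.1% higher). The 8 trophectoderm markers were at 75.0 and 156 CPM in SCLCs, 38.2 and 42.3 in todPGCLCs and 13.0 to 38.5 in ESCs, with Prl3d1 at or below 3 counts in SCLCs. The 7 simple epithelium markers, which include Epcam, Krt8 and Krt18, were at 1412 and 1844 CPM in SCLCs, 1002 to 1132 in ESCs and 853 and 915 in todPGCLCs. In SCLCs against tc;Sf1ESCs 5 were called higher and 1 lower (85.7%, against 42.2% of all genes). In todPGCLCs against tcESCs the sum was lower, but 6 were called higher and 1 lower (100%, against 29.4% of all genes). The median log2 fold change of the 7 was 1.67 there. The part of these epithelial lists in the members' levels was not tested. The higher SCLC value of all 3 was that of replicate 2, which had less of the embryonic stem cell list (638 against 835 CPM). In todPGCLCs the Sertoli list was at 191 and 214 CPM and its part in the members' levels there was not tested. The germ cell list stood at 1037 and 1059 CPM in todPGCLCs, above 411 to 568 elsewhere, while the endoderm list was at 34.3 and 44.2 CPM in these cells. Genes on chromosome Y, where no member lies, summed to 53.5 and 53.9 CPM in tcESCs, 214 to 221 in tc;Sf1ESCs, 174 and 201 in SCLCs and 27.0 and 28.9 in todPGCLCs, although all are labelled XY, and the part of this difference in other results was not tested. The 2 SCLC libraries were also the least alike of the 4 pairs (SD of the log2 difference between replicates 0.515, against 0.309 to 0.380).

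Genes with a mean count above 10 were tested, and a gene was called changed when its fold change exceeded 2 and its adjusted p in edgeR's quasi-likelihood test was under 0.05, adjusted over all genes tested. Of the 35 members, 28 passed the filter, among them 13 of the 20 claudins and all 15 of the others. A member that passed only through the cell type in which it is high had to differ, so counts over these 28 describe the table and are not support for a common direction. The p-values of such members, among them Cldn2, Cldn11 and Cldn23, are not support for a difference either. With 2 libraries a group, p-values measure the spread between these samples. That spread was estimated over all groups of a fit, so the SCLC pair, the least alike, also entered it where the ESC lines were compared. In bulk RNA, a change in the number of expressing cells and a change in RNA per cell cannot be told apart.

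**Figure D1:**
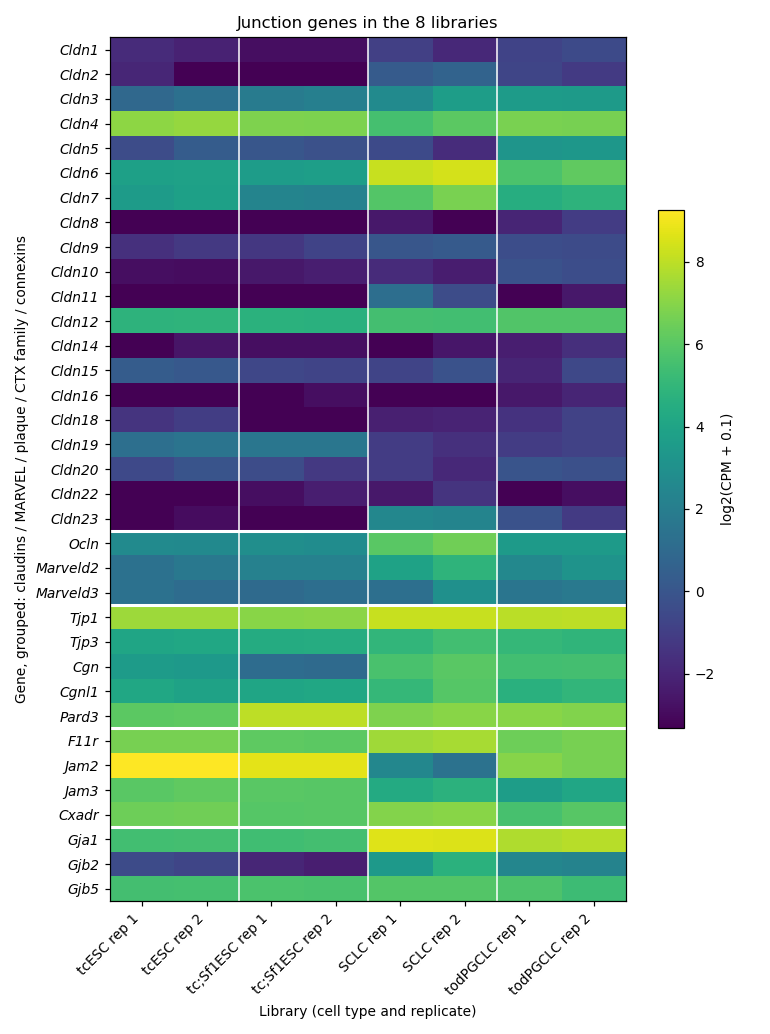
Levels of the 35 junction genes in each of the 8 libraries. Rows are genes grouped by role, columns are libraries, and colour is log2(CPM + 0.1). Cldn6, Cldn7, Ocln, Gja1 and Gjb2 are brighter in both SCLC libraries than in any ESC library, while Jam2 is dark in SCLCs alone.

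The claudins were summed per library in TPM (transcripts scaled to a common total), a level per exon length that allows genes to be compared. The sum was 380 and 414 TPM in tcESCs and 298 and 295 TPM in tc;Sf1ESCs. It was 953 and 1214 TPM in SCLCs and 485 and 524 TPM in todPGCLCs. Mean levels were 397 ± 23.6, 296 ± 2.10, 1083 ± 184 and 504 ± 27.6 TPM (SD, n = 2 each), so that SCLCs stood at 2.73 times tcESCs and todPGCLCs at 1.27 times. No groups overlapped, and no test was made, since 2 libraries against 2 cannot pass 0.05 in an exact permutation test.

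The composition differed between the cell types. In tcESCs Cldn4 supplied 75.4% of the claudin TPM and Cldn6 7.70%, and in tc;Sf1ESCs 73.7% and 8.94%. In SCLCs Cldn6 supplied 66.1% ± 3.78 (SD, n = 2), Cldn7 14.4% and Cldn4 10.9%. The todPGCLCs lay between, with 41.1% Cldn4 and 25.8% Cldn6. The order in SCLCs was Cldn6 (713 TPM), Cldn7 (160 TPM), Cldn4 (119 TPM), Cldn12 (39.8 TPM), Cldn3 (28.9 TPM) and Cldn23 (10.9 TPM), in which the replicates of Cldn7 and Cldn4 overlapped. In tcESCs it was Cldn4 (299 TPM), Cldn6 (30.5 TPM), Cldn12 (24.7 TPM), Cldn7 (24.6 TPM) and Cldn3 (6.07 TPM), with Cldn12 and Cldn7 overlapping, and no other claudin passed 4.01 TPM there. The place of Cldn12 depended on the length used. Over coding length it supplied 11.8% of the claudin TPM in tcESCs and 14.0% in tc;Sf1ESCs, above Cldn6 with 6.64% and 7.69%, and it was also above Cldn6 in both ESC groups in CPM.

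**Figure D2:**
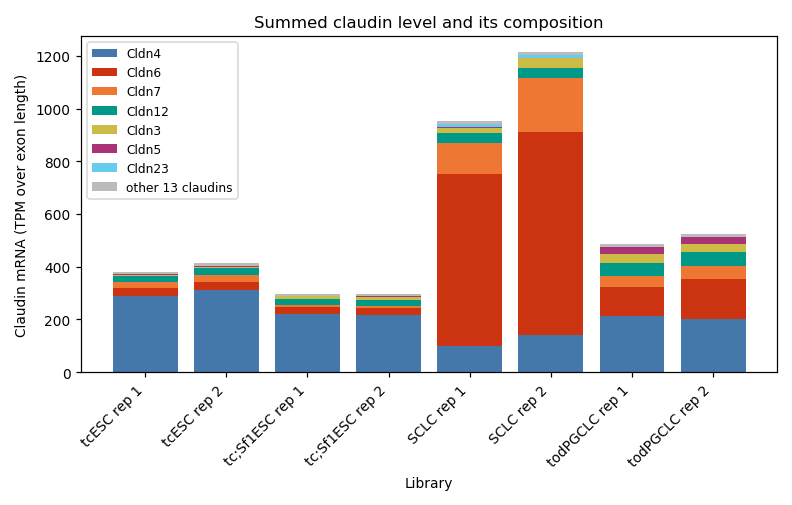
Stacked levels of the 20 claudins in TPM over exon length (vertical axis) in each library (horizontal axis), with 7 claudins in their own colour and 13 in grey. Cldn4 makes up most of each ESC bar, Cldn6 makes up 63.4% and 68.8% of the SCLC bars, and todPGCLC bars hold both.

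Between SCLCs and the tc;Sf1ESCs they were derived from, 21 of the 28 members tested were called, 17 higher and 4 lower in SCLCs. That is 75% of the members, where 42.2% of all 16481 genes tested were called, 24.1% higher and 18.1% lower. The median log2 fold change was 1.34 over the members and 0.016 over all genes. Against tcESCs, 18 members were called (14 higher, 4 lower), which is 64.3% against 42.7% of all genes, 24.3% higher and 18.3% lower. These comparisons share the SCLC libraries. Leaving out SCLC replicate 2 gave 17 called members against either ESC line, and leaving out SCLC replicate 1 gave 20.

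Cldn6, a claudin of embryonic epithelia and of pluripotent cells, was at 13.9 and 14.6 CPM in tcESCs, 12.3 and 13.4 in tc;Sf1ESCs, 298 and 347 in SCLCs and 51.7 and 72.1 in todPGCLCs. Both SCLC libraries stood far above all others, and both todPGCLC libraries lay between. The log2 fold change of SCLCs over tc;Sf1ESCs was 4.70 ± 0.11 (SE; edgeR adjusted p = 1.38e-07). Cldn7, a sealing claudin of simple epithelia, rose from 4.94 and 4.66 CPM in tc;Sf1ESCs to 59.2 and 104 in SCLCs, a log2 fold change of 4.14 ± 0.29 (edgeR adjusted p = 1.36e-05). Its higher value was in the SCLC library with more endoderm markers. Whether these markers and Cldn7 come from the same cells was not tested.

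Cldn4, the leading claudin of ESCs, went the other way. It was at 140 and 155 CPM in tcESCs, 113 and 111 in tc;Sf1ESCs, 46.6 and 66.8 in SCLCs and 106 and 101 in todPGCLCs. It was called lower in SCLCs against tcESCs, with a log2 fold change of -1.31 ± 0.15 (edgeR adjusted p = 0.000193), whereas against tc;Sf1ESCs the value was -0.92 ± 0.15, which is under the 2-fold limit unless SCLC replicate 2 is left out (-1.21). Its neighbour Cldn3 lies 39.3 kb away on chromosome 5, with the starts of both genes facing each other. Cldn3, one of the claudins of the Sertoli barrier, rose from 3.63 and 4.23 CPM in tc;Sf1ESCs to 6.34 and 12.8 in SCLCs (log2 fold change 1.34 ± 0.34, edgeR adjusted p = 0.00936). Without SCLC replicate 2 its log2 fold change fell to 0.73, and without tc;Sf1ESC replicate 1 its edgeR adjusted p was 0.065.

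Cldn11, the claudin on which the blood-testis barrier depends, had no count in any of the 4 ESC libraries. It had 60 and 19 counts in SCLCs (2.26 and 0.653 CPM) and 0 and 2 in todPGCLCs. SCLCs were thus at least 13-fold higher than tc;Sf1ESCs and at least 13.5-fold higher than tcESCs, taking 3 counts per library as the floor. With SCLC replicate 2 alone these bounds were 5.83-fold and 6.05-fold, and with SCLC replicate 1 alone 20.2-fold and 21.0-fold, values added after seeing the data. The call was made by edgeR (adjusted p = 0.00586 against tc;Sf1ESCs) and not by DESeq2 (adjusted p = 0.139). Cldn11 passed the filter only through its SCLC counts, so neither p-value is support for a difference. At 2.96 TPM Cldn11 made up 0.296% of the claudin mRNA of SCLCs, and it was higher in SCLC replicate 1, the library with fewer endoderm markers. Whether its level and these markers are related was not tested.

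Cldn5, the claudin of endothelium that Sertoli cells also express, was under 1.2 CPM in every ESC and SCLC library. The values were 0.669 and 1.17 CPM in tcESCs, 0.926 and 0.759 in tc;Sf1ESCs, 0.604 and 0.206 in SCLCs and 9.33 and 9.90 in todPGCLCs. The high libraries were thus those of todPGCLCs alone, with a log2 fold change over tcESCs of 3.29 ± 0.35 (edgeR adjusted p = 6.82e-05). Against ESCs, the SCLC values were -1.15 ± 0.53 (tcESCs, edgeR adjusted p = 0.0873) and -1.02 ± 0.54 (tc;Sf1ESCs, edgeR adjusted p = 0.129), neither called. Without SCLC replicate 1 both were called, at -2.08 and -1.94 (edgeR adjusted p = 0.00208 and 0.00472), as was the first with every gene tested (edgeR adjusted p = 0.0222). SCLCs were lower than todPGCLCs by a log2 fold change of -4.45 ± 0.40 (edgeR adjusted p = 1.44e-05), a value that ran from -5.37 to -3.85 as either SCLC library was left out. Endothelial markers moved with it in part: the sum of 8 was 326 and 274 CPM in todPGCLCs against 119 to 154 elsewhere, with Tie1 at 5.99 and 3.80 CPM and Cdh5 at 1.31 and 0.678 CPM, but Emcn at or below 3 counts. Of the 6 tested, 4 were called higher and 1 lower in todPGCLCs than in tcESCs (83.3%, against 29.4% of all genes). In SCLCs against todPGCLCs 2 were called higher, among them Esam (log2 fold change 3.27 ± 0.20), and 3 lower (83.3%, against 38% of all genes). The part of these markers in the Cldn5 level was not tested.

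Cldn23 and Cldn2 appeared in SCLCs from near absence. Cldn23, on chromosome 8, had 0 and 1 counts in tcESCs, none in tc;Sf1ESCs, 147 and 148 in SCLCs and 22 and 9 in todPGCLCs. SCLCs were at least 47.4-fold higher than tc;Sf1ESCs, and todPGCLCs lay between in both libraries. Against the single count in tcESCs the ratio of SCLCs was 298, with an exact binomial 95% interval of 53.0 to 11795 that covers counting error only. The fitted log2 fold change over tcESCs, 7.955, ran from 7.22 to 10.19 with single libraries left out. Cldn2, a pore claudin of leaky epithelia such as the proximal tubule and gut crypt, had 4 and 0 counts in tcESCs, none in tc;Sf1ESCs, 30 and 43 in SCLCs and 14 and 9 in todPGCLCs. It was at least 11.6-fold higher in SCLCs than in tc;Sf1ESCs. Without either SCLC library Cldn2 fell under the filter and was not tested, as was Cldn11 without SCLC replicate 1.

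Cldn12, a claudin without the usual scaffold-binding end, was at 25.5 to 29.1 CPM in ESCs, 44.7 and 43.9 in SCLCs and 57.7 and 58.0 in todPGCLCs, and its fold changes stayed under 2, except that in todPGCLCs against tcESCs the log2 value of 0.96 became 1.03 with scaling by library totals and was then called. Cldn19, known from the kidney and from Schwann cells, fell from 3.01 and 2.96 CPM in tc;Sf1ESCs to 0.377 and 0.241 in SCLCs (log2 fold change -3.21 ± 0.31, edgeR adjusted p = 6.43e-05). It was as low in todPGCLCs, at 0.363 and 0.452 CPM. Cldn9 lies 137 bases from the end of Cldn6 on chromosome 17, on the opposite strand. It had 8 and 13 counts in tc;Sf1ESCs and 25 and 32 in SCLCs (log2 fold change 1.43 ± 0.37, edgeR adjusted p = 0.010), a call that DESeq2 did not make (adjusted p = 0.0612) and that was lost without tc;Sf1ESC replicate 1 (edgeR adjusted p = 0.0884); whether reads of Cldn6 reached it was not tested. Cldn15 (4 to 31 counts) and Cldn20 (5 to 26 counts) were low in every library, and neither was called in SCLCs against ESCs. Cldn20 against tcESCs was near the threshold (log2 fold change -1.34, edgeR adjusted p = 0.0549) and was called under 4 alternatives: without SCLC replicate 1 (-1.98, edgeR adjusted p = 0.00734), by library totals (edgeR adjusted p = 0.0473), with all 8 libraries fitted (0.0374) and with every gene tested (0.0227). Cldn15 against tcESCs was called without SCLC replicate 2 (-1.09, edgeR adjusted p = 0.0328).

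The other 7 claudins were under the filter. Cldn1 had 1 to 16 counts, with 13 and 16 in todPGCLCs and 11 and 5 in SCLCs. Cldn10 had 22 and 18 counts in todPGCLCs and 1 to 5 elsewhere, a ratio to tcESCs of 20.7 (exact binomial 95% interval 5.38 to 177). Cldn18 had 7 and 12 counts in both tcESCs and todPGCLCs, none in tc;Sf1ESCs and 3 and 4 in SCLCs. Cldn8, Cldn14, Cldn16 and Cldn22 did not exceed 10 counts in any library, and the single exon block of Cldn22 lies wholly on an exon of Wwc2 on the opposite strand, so its reads cannot be assigned without strand.

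All 3 MARVEL genes were called higher in SCLCs than in tc;Sf1ESCs, and Ocln and Marveld2 also against tcESCs and against todPGCLCs. Ocln, which encodes occludin, was at 6.30 and 6.26 CPM in tcESCs, 7.25 and 6.83 in tc;Sf1ESCs, 66.1 and 92.5 in SCLCs and 11.4 in both todPGCLC libraries. The SCLC values did not overlap those of any other group, with a log2 fold change over tc;Sf1ESCs of 3.55 ± 0.18 (edgeR adjusted p = 2.77e-06). Marveld2 encodes tricellulin, the protein of 3-cell corners, and lies 43.2 kb from Ocln on chromosome 13. It rose from 4.47 and 4.55 to 15.2 and 29.3 CPM (log2 fold change 2.35 ± 0.32, edgeR adjusted p = 0.00038). Marveld3, on chromosome 8, was at 1.93 and 2.20 CPM in tc;Sf1ESCs and 2.34 and 7.73 in SCLCs, so its call (edgeR adjusted p = 0.0479) rested on SCLC replicate 2, without which the log2 fold change was 0.22; it was also lost without either tc;Sf1ESC library (edgeR adjusted p = 0.174 and 0.125), with scaling by library totals (0.054), with the filterByExpr filter (0.0509) and with only the 4 libraries compared (0.104). Against tcESCs the Marveld3 value was 1.23 ± 0.51 (edgeR adjusted p = 0.0617), and it was called under 4 alternatives: DESeq2 (adjusted p = 0.0431), all 8 libraries fitted (edgeR adjusted p = 0.041), every gene tested (8.44e-06) and without SCLC replicate 1 (1.86). Against todPGCLCs it was 0.86 ± 0.46 (edgeR adjusted p = 0.122), called without SCLC replicate 1 (1.48) and negative without SCLC replicate 2 (-0.24).

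Among the plaque genes, Tjp1 encodes ZO-1, the scaffold to which claudins bind. It was at 172 and 170 CPM in tcESCs, 130 and 133 in tc;Sf1ESCs, 291 and 295 in SCLCs and 244 and 258 in todPGCLCs. The rise over tc;Sf1ESCs was called (log2 fold change 1.20 ± 0.056, edgeR adjusted p = 2.17e-06), while that over tcESCs, 0.84 ± 0.056, was under the 2-fold limit. Cgn, for cingulin, was at 11.8 and 10.6 CPM in tcESCs, 2.04 and 1.95 in tc;Sf1ESCs, 50.1 and 65.5 in SCLCs and 43.8 and 45.3 in todPGCLCs. It was thus lowest in the clone that gave rise to SCLCs, and the log2 fold change of SCLCs was 4.90 ± 0.18 over tc;Sf1ESCs and 2.43 ± 0.15 over tcESCs (edgeR adjusted p = 8.65e-07 and 7.49e-06). Its paralogue Cgnl1, paracingulin, rose from 16.5 and 18.1 to 33.2 and 61.0 CPM (log2 fold change 1.499 ± 0.27, edgeR adjusted p = 0.00168), which was 0.99 without SCLC replicate 2 and so under the 2-fold limit. Tjp3, for ZO-3, stood at 21.3 and 21.9 CPM in tc;Sf1ESCs and 30.7 and 43.6 in SCLCs, a log2 fold change of 0.84 that passed the limit without SCLC replicate 1 (1.08). It was called against tcESCs (log2 fold change 1.17 ± 0.16, edgeR adjusted p = 0.000491, but 0.88 without SCLC replicate 2).

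Pard3, the polarity scaffold that places tight junctions, was highest in tc;Sf1ESCs. It was at 67.4 and 70.7 CPM in tcESCs, 253 and 259 in tc;Sf1ESCs, 114 and 131 in SCLCs and 129 and 115 in todPGCLCs. SCLCs were lower than tc;Sf1ESCs by a log2 fold change of -1.01 ± 0.079 (edgeR adjusted p = 2.42e-05), at the 2-fold limit and -0.90 without SCLC replicate 1. Pard3 lies on chromosome 8, where the median gene was higher by 0.47 (log2, 864 genes) in tc;Sf1ESCs and by 0.58 in SCLCs than in tcESCs. Marveld3, Cldn22 and Cldn23 lie on the same chromosome.

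The CTX family genes split. F11r, for JAM-A, rose from 69.0 and 67.6 CPM in tc;Sf1ESCs to 173 and 195 in SCLCs (log2 fold change 1.48 ± 0.075, edgeR adjusted p = 3.19e-06), and Cxadr, for the CAR adhesion protein, from 61.9 and 63.6 to 119 and 127 (1.02 ± 0.066, edgeR adjusted p = 9.42e-06, under the 2-fold limit without SCLC replicate 2 or without tc;Sf1ESC replicate 1, at 0.97 and 0.96, and also with scaling by library totals, at 0.97, and with the filterByExpr filter, at 0.98). Neither was called against tcESCs, although F11r (0.90 ± 0.074) passed the limit without SCLC replicate 1, at 1.01. Jam2, for JAM-B, which in the testis binds Sertoli cells to germ cells, fell most of all members. It was at 610 CPM in both tcESC libraries, 432 and 431 in tc;Sf1ESCs, 5.55 and 2.58 in SCLCs and 124 and 104 in todPGCLCs. Per length, Jam2 went from 372 TPM in tcESCs, above every claudin there, to 2.55 TPM in SCLCs. The log2 fold change over tc;Sf1ESCs was -6.69 ± 0.26 (edgeR adjusted p = 1.08e-06) and -7.32 without SCLC replicate 1. Jam3, the partner of JAM-B, was at 65.9 and 64.4 CPM in tc;Sf1ESCs, 20.8 and 27.4 in SCLCs and 12.9 and 17.1 in todPGCLCs, and the fall in SCLCs was called (log2 fold change -1.38 ± 0.13, edgeR adjusted p = 5.55e-05). Of its exon bases 36.2% are shared with an antisense transcript, Gm48796, and reads of both cannot be separated without strand. Jam2 and Cxadr lie on chromosome 16, where the median gene was lower by -0.46 (log2, 502 genes) in tc;Sf1ESCs and by -0.52 in SCLCs than in tcESCs. Cldn5 and 4 claudins under the filter, Cldn1, Cldn8, Cldn14 and Cldn16, lie there too.

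The connexins Gja1 and Gjb2 rose and Gjb5 did not pass the limit. Gja1, connexin 43, was at 43.2 and 44.4 CPM in tcESCs, 41.7 and 44.3 in tc;Sf1ESCs, 404 and 382 in SCLCs and 215 and 239 in todPGCLCs. ESC, todPGCLC and SCLC libraries formed 3 separate levels, and the log2 fold change of SCLCs over tc;Sf1ESCs was 3.24 ± 0.070 (edgeR adjusted p = 1.2e-07). Gjb2, connexin 26, was at 0.630 and 0.522 CPM in tcESCs (16 counts in each), 0.154 and 0.108 in tc;Sf1ESCs (4 and 3 counts), 10.7 and 25.8 in SCLCs and 5.45 and 4.82 in todPGCLCs. The ratio of SCLCs to tc;Sf1ESCs was 142, with an exact binomial 95% interval of 68.8 to 355 for counting error. The fitted log2 fold change was 7.13 ± 0.63 (edgeR adjusted p = 4.37e-05) and 6.35 without SCLC replicate 2. Over tcESCs it was smaller, at 5.05 ± 0.50, which is 33.1-fold (edgeR adjusted p = 8.11e-05; 4.27 without SCLC replicate 2). Gjb5, connexin 31.1, known from trophoblast and epidermis, stayed between 38.8 and 59.7 CPM in all 8 libraries.

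**Figure D3:**
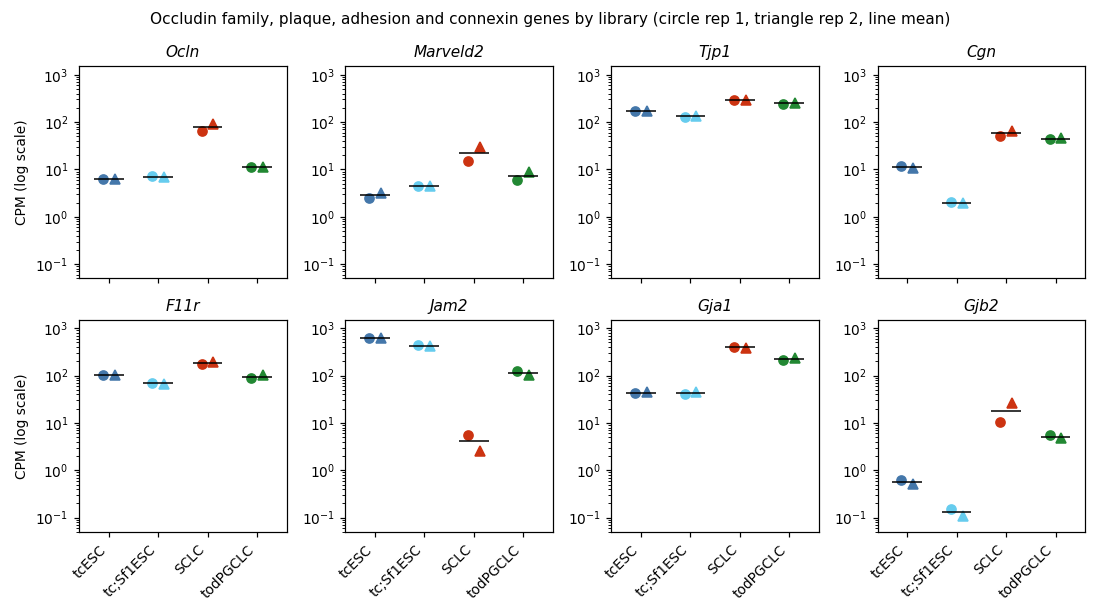
Levels of 8 members outside the claudins in CPM on a log scale (vertical axes) by cell type (horizontal axes); circles are replicate 1, triangles replicate 2 and lines the mean of the 2. Ocln, Marveld2, Gja1 and Gjb2 are highest in SCLCs, Jam2 falls from 610 CPM in tcESCs to 2.58 and 5.55 CPM in SCLCs, and Cgn is lowest in tc;Sf1ESCs.

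The Sf1-overexpressing clone, tc;Sf1ESCs, was compared with tcESCs. Of the 28 members, 3 were called, which is 10.7% against 11.7% of all genes; 1 was higher and 2 were lower, where 6.04% and 5.62% of all genes were. Cgn was lower by a log2 fold change of -2.47 ± 0.19 (edgeR adjusted p = 0.000224) and Pard3 higher by 1.90 ± 0.082 (edgeR adjusted p = 3.71e-05). Cldn7 was at 12.0 and 14.0 CPM in tcESCs and 4.94 and 4.66 in tc;Sf1ESCs, a log2 fold change of -1.43 ± 0.29 (edgeR adjusted p = 0.00979) that lost its call when any 1 of the 4 libraries was left out (adjusted p = 0.0536 to 0.0851). Gjb2, with few counts, was at -2.08 ± 0.93 and was not called (edgeR adjusted p = 0.131), but DESeq2 called it lower (adjusted p = 0.0162), as did edgeR with every gene tested (adjusted p = 0.000519). Cldn15 (-1.04, edgeR adjusted p = 0.062) was called when the 4 libraries compared were fitted alone (edgeR adjusted p = 0.012). Cldn6, Cldn12, Ocln, Gja1 and Jam3 moved by at most 0.18 on the log2 scale. The tc;Sf1ESCs are a single clone, so the effect of the transgene and that of the clone cannot be told apart. Jam2 (-0.49 ± 0.19) and Cxadr (-0.51 ± 0.066) were close to the median of chromosome 16.

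The todPGCLCs were compared with tcESCs, which they do not descend from. Of the members, 14 were called (10 higher, 4 lower), which is 50% against 29.4% of all 16707 genes, 18.1% higher and 11.2% lower. With a library of either group left out the count was 11 or 12. Gja1 rose by a log2 fold change of 2.30 ± 0.077, Cldn6 by 2.04 ± 0.16, Cgn by 1.92 ± 0.14 and Gjb2 by 3.08 ± 0.48 (edgeR adjusted p = 1.97e-07, 1.1e-05, 7.79e-06 and 0.000574). Cldn3 rose as well, from 1.77 and 2.38 CPM to 12.1 and 11.4 (log2 fold change 2.42 ± 0.33, edgeR adjusted p = 0.000278). Jam2, Jam3 and Cldn19 fell, with log2 fold changes of -2.49 ± 0.19, -2.28 ± 0.16 and -2.70 ± 0.30 (edgeR adjusted p = 1.1e-05, 6.32e-06 and 8.65e-05). The remaining calls were Cldn5 (above), Cldn23 (31 counts against 1, a ratio of 32.1 with an exact binomial 95% interval of 5.36 to 1310), Cldn2, Cldn9, Marveld2 and, lower, Cldn15, the last 4 of which were lost when single libraries were left out. The fitted log2 fold change of Cldn23, 4.62, ran from 3.84 to 6.87 with single libraries left out. Cldn2 was lost without tcESC replicate 2 or either todPGCLC library (adjusted p = 0.0703 to 0.172), Cldn9 without any 1 of the 4 libraries (0.0714 to 0.159), Marveld2 without tcESC replicate 1 or todPGCLC replicate 2 (0.0889 and 0.0783), and Cldn15 without either tcESC library or todPGCLC replicate 1 (0.0532 to 0.0951), all in edgeR. DESeq2 did not call Cldn2 or Cldn9 there (adjusted p = 0.0717 and 0.184), and with every gene tested Cldn9 was not called (edgeR adjusted p = 0.0754). On chromosome 11 the median gene was 0.52 (log2) higher in todPGCLCs, and Cldn7, which lies there, was at 0.87 ± 0.25, under the 2-fold limit unless todPGCLC replicate 1 was left out (1.02).

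Set against todPGCLCs, SCLCs stood at a median log2 difference of -0.53 over the genes of chromosome 16 (which holds Cldn5, Jam2 and Cxadr), -0.53 over chromosome 11 (Cldn7) and 0.54 over chromosome 8 (Cldn23, Marveld3 and Pard3). SCLCs had 13 members called (10 higher, 3 lower), which is 46.4% against 38% of all genes, 19.5% higher and 18.5% lower. Ocln differed by a log2 fold change of 2.93 ± 0.16, Cldn6 by 2.51 ± 0.15 and Cldn7 by 1.84 ± 0.24 (edgeR adjusted p = 8.45e-07, 1.3e-06 and 0.000132). Gjb2 (1.96 ± 0.36; 1.19 without SCLC replicate 2) and Marveld2 (1.76 ± 0.31) were also higher in SCLCs (edgeR adjusted p = 0.00116 and 0.000899), as were Cxadr (1.27 ± 0.12) and F11r (1.09 ± 0.085; under the limit without todPGCLC replicate 1, at 0.998, and with scaling by library totals, at 0.96). Cldn23, Cldn2 and Cldn11 were the other 3 called higher. For Cldn2 the call was lost without either todPGCLC library (log2 fold change 1.48 to 2.06) and in DESeq2 (adjusted p = 0.101). For Cldn11 DESeq2 gave an adjusted p of 0.294, with 79 counts against 2 (ratio 38.4, exact binomial 95% interval 10.3 to 323). The fitted log2 fold change of Cldn11, 5.25, ran from 4.30 to 8.37 with single libraries left out. Lower in SCLCs were Cldn5, Jam2 (-4.69 ± 0.24, edgeR adjusted p = 6.41e-07; -5.32 without SCLC replicate 1) and Cldn20, the last with 10 and 5 counts against 24 and 20 and lost without SCLC replicate 2 or either todPGCLC library (edgeR adjusted p = 0.0609 to 0.148) and in DESeq2 (adjusted p = 0.106). No plaque gene was called between the 2 derived cell types, with log2 differences from 0.14 for Pard3 to 0.89 for Cgnl1. Cgnl1 was called without SCLC replicate 1 (1.27, edgeR adjusted p = 6.65e-06) or without todPGCLC replicate 2 (1.04, edgeR adjusted p = 0.0292). Uncalled members that passed with 1 library left out were also Jam3 (0.82; 1.02 without SCLC replicate 1 and 1.03 without todPGCLC replicate 2), Cldn4 (-0.73; -1.01 without SCLC replicate 2) and Cldn15 (0.995; 2.24 without todPGCLC replicate 2).

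**Figure D4:**
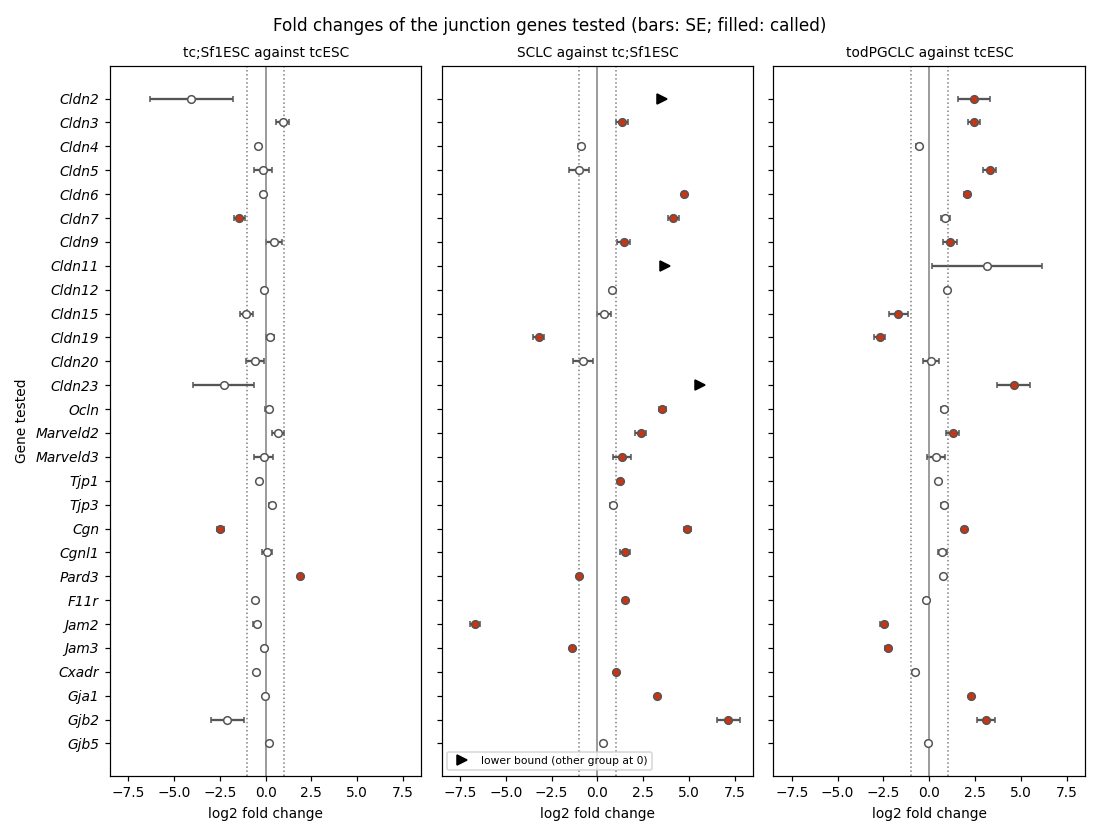
Log2 fold changes of the 28 members tested (horizontal axes) with their SE as bars in 3 comparisons. Filled points were called, dotted lines mark the 2-fold limit, triangles are lower bounds for genes with no count in the other group, and Cldn11 has no value in the first comparison; Cldn6, Ocln, Cgn, Gja1 and Gjb2 stand at 3.24 or above in the comparison of SCLCs with tc;Sf1ESCs and Jam2 at -6.69.

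The wider junction machinery was followed in fixed lists outside the 35. Between SCLCs and tc;Sf1ESCs, 15 of 31 plaque and polarity genes were called (11 higher, 4 lower), with Amot (log2 fold change 5.65 ± 0.23) and Patj (4.32 ± 0.076) highest and the apical Crb2 lower (-3.02 ± 0.23). Of 6 other tight junction membrane genes tested out of 15, 3 were higher and 1 lower: Esam (6.22 ± 0.27) and the tricellular Lsr (4.79 ± 0.19) rose, while Ildr1, the relative of Lsr, fell from 154 and 152 to 9.58 and 5.19 CPM (-4.33 ± 0.22). Of the 7 desmosome genes tested, 4 were higher, with Dsc2 (5.07 ± 0.47) first, and 2 lower. Adherens junction genes went both ways, 2 higher and 3 lower of 12: Nectin2 rose (2.53 ± 0.082) and Cdh2 (-3.18 ± 0.14) and Cdh1 (-1.08 ± 0.17) fell. The called shares were 48.4% for plaque and polarity, 66.7% for membrane, 85.7% for desmosome and 41.7% for adherens junction genes, beside 42.2% of all genes (24.1% higher, 18.1% lower). Medians were 0.47 for plaque and polarity, 1.89 for membrane, 1.82 for desmosome and -0.11 for adherens junction genes, beside 0.016 for all genes. Some genes named here also differed between the ESC lines. In tc;Sf1ESCs against tcESCs Crb2 was higher (3.12 ± 0.23) and Lsr (-2.01 ± 0.19) and Dsc2 (-2.39 ± 0.50) were lower. Over tcESCs, SCLCs were higher by 2.78 ± 0.16 for Lsr and 2.68 ± 0.39 for Dsc2, and Crb2 and Cdh1 were not called lower.

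Of 15 regulators of epithelial junction genes, 5 were higher and 1 lower in SCLCs than in tc;Sf1ESCs, which is 40% against 42.2% of all genes. Snai1, a repressor of claudin and E-cadherin genes, rose from 6.98 and 6.79 to 75.3 and 51.1 CPM (log2 fold change 3.25 ± 0.20), and Esrp1, a splicing factor of epithelia, to 72.8 and 67.4 CPM from at most 10.4 (2.93 ± 0.11). In todPGCLCs against tcESCs Esrp1 rose by 4.44 ± 0.14 and Grhl2, an activator of claudin genes, by 4.22 ± 0.19, while Snai1 was lower (-1.44 ± 0.27). Zeb2, another repressor of epithelial genes, was higher than in tcESCs by 3.07 ± 0.42 (edgeR adjusted p = 0.000279), and in SCLCs it was higher than in tc;Sf1ESCs by 2.75 ± 0.44. The 6 other connexins and pannexins tested, of 20, had 1 higher and 1 lower in SCLCs over tc;Sf1ESCs, Gjb1 and Gjc1, which is 33.3% called. Each gene named here from these lists as risen or fallen in SCLCs or todPGCLCs had an edgeR adjusted p of at most 0.0027.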

How the data were processed

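RNA-seq libraries of tcESCs, tc;Sf1ESCs, SCLCs and todPGCLCs, 2 each, were analysed. The authors trimmed reads with Trim Galore, aligned them to GRCm38 with STAR 2.4.0 and deposited raw counts per gene from HTSeq. Tools and version are from the submitters' processing notes. The study describes strand-specific cDNA, but the annotation release and the strand setting of the counting are not given in the sources used here. Reads set aside by the authors' counting as ambiguous, not unique or outside genes were 35.6% to 41.6% of all and stayed out of library totals, so similar claudin genes can be undercounted. Gene IDs were named with GENCODE M21 (45229 of 46078), which also gave exon lengths for TPM. Counts were fitted in R 4.3.3 with edgeR 4.0.16 (quasi-likelihood test, TMM, mean count above 10): 6 libraries and 16481 genes for comparisons among tcESCs, tc;Sf1ESCs and SCLCs, and 8 libraries and 16707 genes for those with todPGCLCs. Genes with a fold change greater than 2 and a Benjamini-Hochberg adjusted p under 0.05 were called. DESeq2 1.42.0 was an alternative. The reads carried no molecular identifiers, so intervals and the floor of 3 counts cover counting error only. Labels gave no batch. The members and lists were chosen with earlier results of these data known. All 35 members are accounted for; from other lists at most 3 genes higher and 3 lower per comparison were eligible to be named, chosen by largest fold change from called genes that averaged at least 1 CPM and whose groups did not overlap. Protein sequences were not analysed here.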

Additional observations from a re-analysis of the deposited data

How the results depend on the processing

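The number of members called stayed within 1.5 times the reported count under every alternative run, except for tc;Sf1ESCs against tcESCs, where testing every gene with at least 1 count gave 5 in place of 3, with 35 members tested. Leaving out single libraries gave 2 in that comparison, 17 to 20 for SCLCs against tc;Sf1ESCs, 17 to 20 for SCLCs against tcESCs, 11 to 12 for todPGCLCs against tcESCs and 10 to 14 for SCLCs against todPGCLCs; the lone library left in a group is then assumed to vary like the others. Over all genes, a test against a 2-fold change (glmTreat) called 594 in place of 1922 for tc;Sf1ESCs against tcESCs and 3078 in place of 4906 for todPGCLCs against tcESCs, and leaving out libraries gave 1119 to 1240 in the first. Among members glmTreat ended the calls of Cldn3, Cldn9, Marveld3, Pard3 and Cxadr in SCLCs against tc;Sf1ESCs, Tjp3 in SCLCs against tcESCs, Cldn2, Cldn20 and F11r in SCLCs against todPGCLCs, Cldn7 in tc;Sf1ESCs against tcESCs, and Cldn2, Cldn9, Cldn15 and Marveld2 in todPGCLCs against tcESCs. Scaling by library totals moved the median gene by -0.13 (log2) for SCLCs against todPGCLCs. Ratios of summed claudin level to tcESCs ran from 0.716 to 0.779 in tc;Sf1ESCs, 2.4 to 3.06 in SCLCs and 1.22 to 1.33 in todPGCLCs. Same-numbered libraries did not deviate together (correlation -0.026 to 0.062), and with the number as a replicate block the counts of calls were 3, 21, 18, 13 and 13, against 3, 21, 18, 14 and 13; only the Cldn2 call in todPGCLCs was lost (adjusted p = 0.0513 in edgeR), and Cldn11 in tc;Sf1ESCs against tcESCs, with no counts, moved from 0 to -0.054.

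No member that was called changed direction. The members that changed sign in some alternative were uncalled as reported, though Marveld3 in SCLCs against todPGCLCs was called without SCLC replicate 1, and their log2 fold changes with single libraries left out were as follows. In tc;Sf1ESCs against tcESCs Cldn2 ran from -5.10 to 0, Marveld3 from -0.23 to 0.0029, Cldn5 from -0.46 to 0.34 (with 0.0059 between), Cldn23 from -3.03 to 0, Cgnl1 from -0.029 to 0.22 and Gja1 from -0.059 to 0.037 (with 0.00063 between). In SCLCs against tc;Sf1ESCs Cldn15 ran from -0.046 to 0.66. In todPGCLCs against tcESCs Gjb5 ran from -0.30 to 0.14 and was 0.0019 by library totals, Cldn20 had negative values of -0.18 and -0.012 and a highest of 0.34, and Cldn11 ran from 0 to 4.06. In SCLCs against todPGCLCs Cldn3 ran from -0.75 to 0.27, Cldn19 from -0.60 to 0.029 and Marveld3 from -0.24 to 1.48. The cause was not tested. Where leaving out libraries or keeping only the 4 compared put Cldn2, Cldn9, Cldn11, Cldn19, Cldn23 or Gjb2 under the filter, no value was given. Among these was Cldn2 in each comparison of SCLCs without an SCLC library.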
